A study of Mus musculus with 14 samples.

Results

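RNA labelled as lymph node was compared between mice lacking Atm (Atm-/-, here KO) and Atm+/+ mice (here WT). RNA of both was taken 30 min after ionizing radiation. The arrays of this comparison were chosen by their titles and numbered 4 of 14, with 2 per genotype, lettered A and B. The remaining arrays of the series, used as background, were 3 untreated arrays (A, B and C) and 2 arrays from 120 min after radiation in each genotype. All were one-colour Affymetrix arrays with 1 intensity per probe set, a set of short probes directed at one transcript. The sources used here do not state the radiation dose, the mouse strain, age or sex, how Atm was disrupted or how many animals stand behind an array. Nothing in the labels says that lettered arrays came from separate animals, so the p-values measure the spread between these samples, which may be technical. The number of arrays limits the precision.

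ATM is the protein kinase that is activated at DNA double-strand breaks and phosphorylates checkpoint kinases, p53 and many other proteins. It also signals from the nucleus to the IkB kinase complex, which releases the transcription factor NF-kB from its inhibitors. Immediate-early genes such as Fos and Egr1 are transcribed within minutes of a stimulus, before any new protein is made, and many of them encode transcription factors. Lymph nodes are made up mostly of B and T lymphocytes, which are sensitive to radiation. The RNA compared here also gave high signal for salivary gland genes, as given below with the cell type markers.

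KO array A at 30 min stood apart from the other 13 arrays. Its median correlation with them was 0.91, against 0.928 to 0.953 for the others, and its median intensity was 80.4, against 61 to 72.6. The 2 KO arrays at 30 min correlated at 0.913 and the 2 WT arrays at 0.947. The ratio of 3′ to 5′ control probe sets, a sign of RNA quality, was 1.07 and 0.970 in KO and 0.851 and 0.890 in WT for Gapdh, without overlap, and 1.43 and 1.24 against 1.33 and 1.43 for actin. The part of these in the differences was not tested, and values without KO array A are given where they bear on a result.

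Atm itself was represented by 1 tested probe set. Its intensity was 5.5 and 34.2 in the WT arrays at 30 min and 7.5 and 11.8 in the KO arrays. The genotypes overlapped over the series too, with 8.1 to 54.8 in untreated WT and 7.5 to 44 in untreated KO. The difference of -0.27 ± 0.40 on the log2 scale had an adjusted p of 0.926 (limma). The sources do not say whether these probes lie inside or outside the disrupted sequence, so this signal checks nothing about the labels.

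Differences below are KO minus WT on the log2(intensity + 32) scale after quantile normalization, each ± its standard error from a limma fit to all 14 arrays, with 2 arrays per group at 30 min. Adding 32 before the logarithm understates the change of genes with low intensity, and folds are on that same scale. A probe set was called at a Benjamini-Hochberg adjusted p under 0.05 over the 8938 probe sets tested. In bulk tissue, fewer cells of a type and less RNA per cell cannot be told apart.

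At 30 min after radiation, 8 probe sets were lower in KO than in WT (0.0895% of those tested) and 1 was higher (0.0112%), together 0.101%. The 8 belonged to 7 genes, Ier3, Fos, Cxcl1 (with 2 probe sets), Dusp1, Nfkbia, Ier2 and Egr1, which were 2.23-fold to 8.30-fold lower in KO. The 1 higher probe set was that of Met, which passed the filter on low values only through the 2 KO arrays at 30 min. Before radiation 0 probe sets (0%) were called between the genotypes with limma, with 490 at an unadjusted p under 0.05, against 599 at 30 min. With median centring in place of quantile normalization the split at 30 min was 8 lower and 0 higher.

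**Figure D1:**
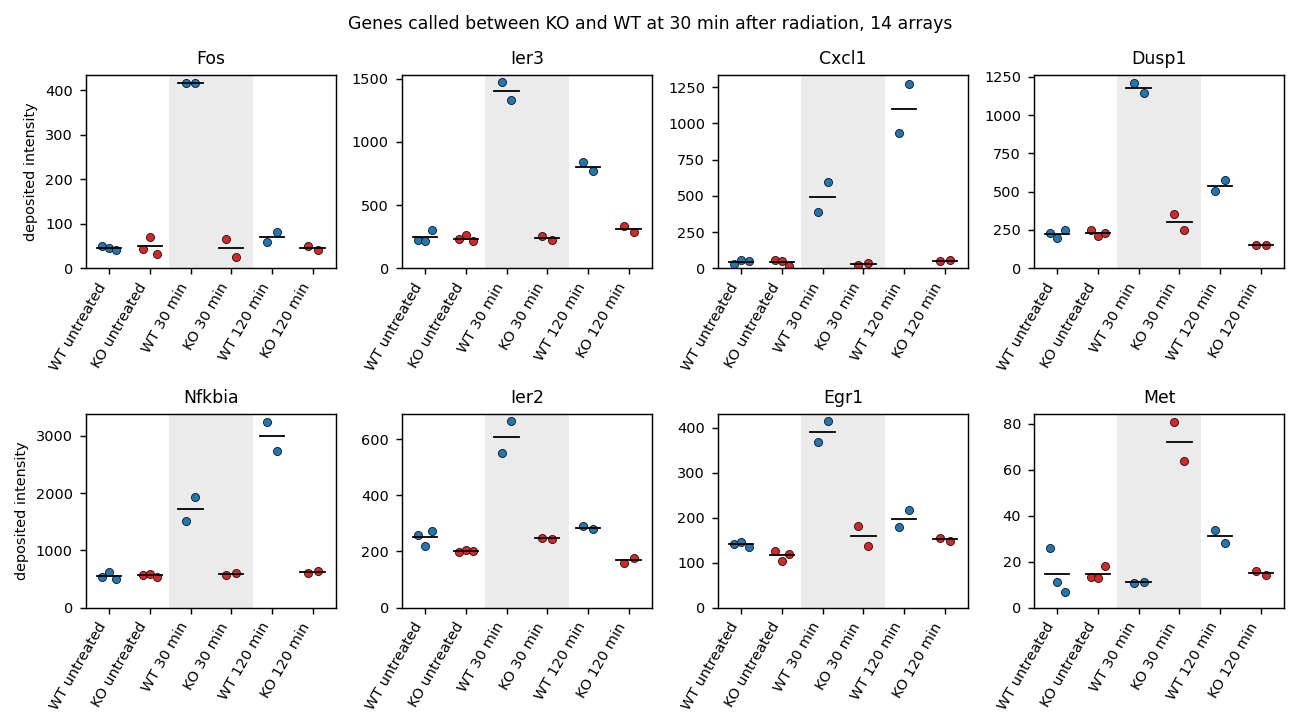
Deposited intensity of the 8 genes called between KO and WT at 30 min on each of the 14 arrays, 1 panel per gene with its own linear axis from 0. Points are arrays (blue WT, red KO), the bar is the mean of a group and the grey band marks the 30 min groups. In the first 7 panels the 2 WT arrays at 30 min lie above both KO arrays, and for Met they lie under both.

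The transcription factor genes were Fos and Egr1. Fos, which encodes a subunit of the AP-1 factor, had intensities of 416.1 and 416 in the WT arrays at 30 min and 66.5 and 24.6 in the KO arrays. Both WT arrays were high, while the KO arrays lay within or near the untreated range of 42.1 to 49 in WT and 32.8 to 70.9 in KO. The difference was -2.60 ± 0.23, a 6.08-fold lower value in KO (adjusted p = 0.000243, limma). KO array B lay below the added 32, so the size depends on the offset. It ran from -3.28 with values floored at 32 to -2.18 with an offset of 64, called in both. Egr1, a zinc finger factor, gave 367.5 and 415.4 in WT against 181.3 and 136.5 in KO. The groups did not overlap, and the difference was -1.15 ± 0.17, or 2.23-fold (adjusted p = 0.0192, limma). Untreated Egr1 intensities ran from 135.1 to 146.1 in WT and from 102.9 to 126 in KO.

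Ier3 and Ier2 are early response genes of another kind, Ier3 encoding a short-lived protein that affects cell survival. Ier3 intensities were 1469.3 and 1329.8 in WT and 257.5 and 222.5 in KO at 30 min, and the difference was -2.36 ± 0.19, or 5.12-fold (adjusted p = 0.000227, limma). The KO arrays lay in the range of the untreated arrays, which was 212.1 to 299.1 over both genotypes. Ier2 intensities were 551.1 and 665 in WT and 247.9 and 244.5 in KO, and the difference was -1.19 ± 0.17, or 2.28-fold (adjusted p = 0.0136, limma). Neither gene's KO arrays reached its WT arrays. The calls of Ier2 and Egr1 ended with the 4 arrays alone, with the 8 irradiated arrays (adjusted p = 0.147 and 0.201, limma) and with array weights (adjusted p = 0.0733 and 0.0938, limma).

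Dusp1 and Nfkbia encode feedback inhibitors, a phosphatase that inactivates MAP kinases and the inhibitor IkB-alpha that holds NF-kB in the cytoplasm. Dusp1 intensities were 1211.2 and 1142 in WT and 351.8 and 248.7 in KO, a difference of -1.82 ± 0.20, or 3.54-fold (adjusted p = 0.00176, limma). KO array A was above the untreated range of 198.2 to 251.9 and KO array B within it. Nfkbia intensities at the called probe set were 1504.3 and 1929.9 in WT and 575.4 and 598.6 in KO, a difference of -1.41 ± 0.17, or 2.65-fold (adjusted p = 0.00427, limma). Both KO arrays lay within the untreated range of 505.7 to 622. This call ended with the 4 arrays alone and with the 8 irradiated arrays. The second Nfkbia probe set, with 697.9 and 801.3 in WT and 365.7 and 296.1 in KO, gave -1.06 and was not called (adjusted p = 0.143, limma).

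Cxcl1 encodes a chemokine that attracts neutrophils and is a known NF-kB target. Its first probe set had intensities of 391.6 and 597.6 in WT and 25.1 and 33.8 in KO, and a difference of -3.05 ± 0.31, or 8.30-fold (adjusted p = 0.000952, limma). The second had 426.9 and 517.5 in WT and 41 and 49.7 in KO, with a difference of -2.71 ± 0.36 (adjusted p = 0.00688, limma). On both, the KO arrays were far below the WT arrays. With KO values this low the size depends on the offset, and the first difference ran from -3.77 with values floored at 32 to -2.53 with an offset of 64, called in both. The call of the second ended with the 4 arrays alone, the 8 irradiated arrays and array weights (adjusted p = 0.109, 0.0537 and 0.0604, limma). At the first probe set they lay within the untreated range of 16.2 to 59.1.

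Met encodes the receptor tyrosine kinase for hepatocyte growth factor. Its intensities were 80.6 and 63.9 in KO and 10.9 and 11.2 in WT at 30 min, and 6.6 to 33.9 on the other arrays. Both KO arrays were thus the highest of the 14, while all other values lay near or below the added 32. The difference was 1.21 ± 0.19 (adjusted p = 0.0294, limma; 0.0292 without the filter). Of the 14 arrays the 2 KO arrays at 30 min alone lay above their own 40th percentile, the limit of the filter, so Met was tested only because of the group in which it is high, and no fold is given against WT values below that limit. The call ended under 7 of 11 other settings and in 6 of 12 fits that left out 1 array, with a highest adjusted p of 0.686 (limma). It could not be fitted without either KO array at 30 min or with the filter at the 60th percentile, where Met was not tested.

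The promoters of 5 genes called lower in KO are shown. No promoter entry was matched for Ier2, which was also called lower. Those of Egr1, called lower too, and of Met were not searched, so the counts below leave these genes out. Each sequence is the 250 bases before the RefSeq transcription start on the gene's strand, 5′ to 3′, in the GRCm38.p6 build. Capitals mark kB sites, the cAMP response element TGACGTCA, its shortened form TGACG and TATA boxes.
Fos, chr12:85473640-85473889, plus strand: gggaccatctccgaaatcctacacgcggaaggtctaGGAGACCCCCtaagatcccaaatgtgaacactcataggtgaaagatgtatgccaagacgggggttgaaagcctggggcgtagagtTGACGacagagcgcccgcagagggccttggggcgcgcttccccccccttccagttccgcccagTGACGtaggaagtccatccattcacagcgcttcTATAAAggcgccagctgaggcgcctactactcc
Ier3, chr17:35821463-35821712, plus strand: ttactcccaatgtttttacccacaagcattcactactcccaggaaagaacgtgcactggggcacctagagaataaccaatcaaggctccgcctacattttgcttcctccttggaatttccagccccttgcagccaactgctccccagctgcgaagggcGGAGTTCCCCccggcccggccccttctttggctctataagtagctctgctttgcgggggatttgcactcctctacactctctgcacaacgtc
Cxcl1, chr5:90890995-90891244, plus strand: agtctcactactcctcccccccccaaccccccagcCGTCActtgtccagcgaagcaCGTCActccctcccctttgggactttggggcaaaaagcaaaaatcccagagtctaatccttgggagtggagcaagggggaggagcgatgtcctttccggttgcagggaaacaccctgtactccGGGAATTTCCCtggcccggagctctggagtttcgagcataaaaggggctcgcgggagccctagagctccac
Dusp1, chr17:26508473-26508722, minus strand: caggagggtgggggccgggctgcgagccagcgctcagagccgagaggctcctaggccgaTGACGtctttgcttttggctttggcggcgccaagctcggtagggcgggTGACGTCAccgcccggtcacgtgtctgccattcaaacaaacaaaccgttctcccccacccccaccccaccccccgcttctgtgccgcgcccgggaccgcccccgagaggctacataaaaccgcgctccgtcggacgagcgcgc
Nfkbia, chr12:55492648-55492897, minus strand: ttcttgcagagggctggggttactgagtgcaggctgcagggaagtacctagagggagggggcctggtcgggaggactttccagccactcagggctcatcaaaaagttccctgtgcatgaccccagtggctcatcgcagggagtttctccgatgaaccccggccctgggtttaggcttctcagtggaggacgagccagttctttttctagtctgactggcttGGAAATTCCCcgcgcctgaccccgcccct

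A kB site was matched in 4 of these 5 windows, and in 7.25% of 32851 RefSeq promoter windows of the same length. Cxcl1, Nfkbia and Ier3 are known NF-kB targets, so the count describes these windows and is no test. It lay 214 to 205 bases before the start in Fos, 92 to 83 in Ier3, 71 to 61 in Cxcl1 (overlapping matches on both strands) and 29 to 20 in Nfkbia. The Dusp1 window held none, but held TGACGTCA at 143 to 136 bases before the start, found in 1.55% of all windows, which contains 2 of its 3 TGACG matches. Fos and Cxcl1 held 2 TGACG matches each, a match found in 17.8% of windows. Fos also held TATAAA at 33 to 28 bases before the start (TATAAA or TATATA was found in 15.6%). Neither the AP-1 site (TGACTCA or TGAGTCA, 4.46%) nor the CArG box (1.47%) was matched in any of the 5. All motifs were searched on both strands. A match describes letters and is not a measured site, and a missing match says only that the letters are not in this window.

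Where the radiation response of each genotype stood is given by the change from its own untreated arrays. These changes share the 30 min arrays with the genotype comparison and are set beside it, not as separate support. In WT, 9 probe sets rose at 30 min (0.101%), those of Ier3, Fos, Dusp1, Nfkbia, Egr1, Ier2, Zfp36 and both of Cxcl1. In KO, 0 probe sets were called with limma at 30 min against untreated (0%), with 749 at an unadjusted p under 0.05. The WT rise was 2.53 ± 0.21 for Fos, 2.35 ± 0.18 for Ier3, 2.21 ± 0.19 for Dusp1 and 1.50 ± 0.16 for Nfkbia. The KO change was -0.10 ± 0.21 for Fos, 0.04 ± 0.18 for Ier3, 0.34 ± 0.19 for Dusp1 and 0.07 ± 0.16 for Nfkbia, none of them called. For Egr1 it was 0.368 ± 0.157 and for Ier2 0.245 ± 0.154, not called either. In both genes the KO arrays at 30 min lay above all untreated KO arrays (102.9 to 126 for Egr1, 198.6 to 205.9 for Ier2). For the Cxcl1 probe sets it was -0.159 ± 0.286 and -0.316 ± 0.324. Met stood in the opposite place, with -0.03 ± 0.17 in WT and 1.15 ± 0.17 in KO, which was not called (adjusted p = 0.0872, limma).

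The untreated genotype difference of these genes was small. It ran from -0.16 (Cxcl1, first probe set) to 0.04 (Dusp1) at the leading probe sets of the 5 genes with shown promoters, was 0.19 at the second Cxcl1 probe set, and was -0.26 for Ier2, -0.24 for Egr1 and 0.03 for Met. The test of whether the difference at 30 min departed from the untreated one called 6 probe sets in the negative direction (0.0671%) and 1 in the positive (0.0112%). The 6 were those of Ier3, Fos, Dusp1, Nfkbia and both of Cxcl1, and the departure was -2.31 ± 0.25 for Ier3 and -2.63 ± 0.29 for Fos (adjusted p = 0.00388 for both, limma). For Ier2 (-0.92 ± 0.22), Egr1 (-0.92 ± 0.22) and Met (1.18 ± 0.25) it was not called, at adjusted p of 0.443, 0.461 and 0.267 (limma).

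**Figure D2:**
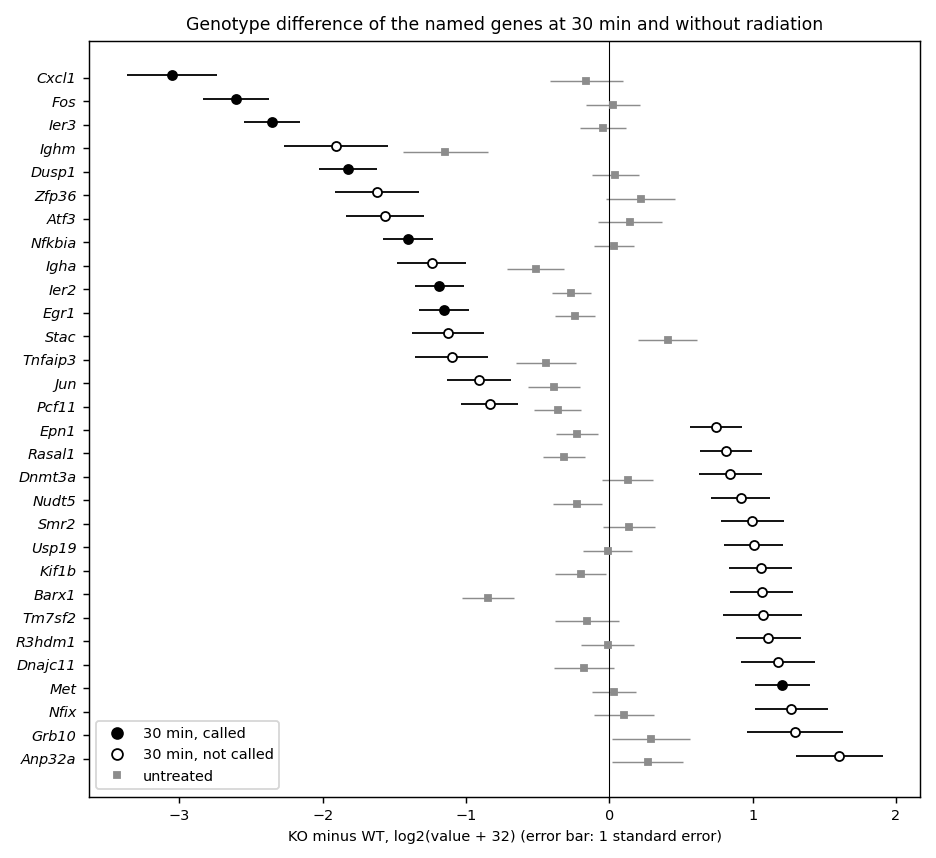
KO minus WT difference of the 30 named genes on the log2(intensity + 32) scale, 15 per direction, at 30 min (circles, filled where called) and untreated (grey squares), with bars of 1 standard error. The called differences at 30 min run from -3.05 (Cxcl1) to 1.21 (Met), while the untreated squares of these 8 genes lie between -0.26 and 0.04.

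A further 8 genes were among the 15 with the smallest p on the lower side without being called, and 3 of them belong to the early genes. Zfp36, whose protein binds AU-rich messages and starts their decay, had 876.7 and 487.6 in WT and 207.1 and 174.7 in KO, a difference of -1.62 ± 0.29 (adjusted p = 0.0871, limma). Atf3, a stress-induced partner of AP-1 proteins, had 199.4 and 309.5 in WT and 56.3 and 77.2 in KO at its first probe set, with -1.56 ± 0.27 (adjusted p = 0.0733, limma), and -0.68 at its second. Jun, the main partner of Fos, had 131.2 and 203 in WT and 79 and 71.5 in KO, with -0.91 ± 0.22 (adjusted p = 0.349, limma). The genes of both directions were picked by the smallest p, so the lack of overlap between their 2 KO and 2 WT arrays is no finding.

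Tnfaip3 encodes A20, which shuts down NF-kB signalling. It had intensities of 69 and 54.7 in WT and 16.5 and 8 in KO, and a difference of -1.10 ± 0.26 (adjusted p = 0.273, limma). Stac, an adaptor gene, had 43.6 and 47 in WT and 3.2 and 4.4 in KO (-1.13 ± 0.25). Its untreated KO arrays, at 31.1 to 49, lay above its KO arrays at 30 min, and the untreated WT arrays ran from 12 to 34.7. Pcf11, a factor of transcript cleavage and termination, had 132.2 and 93 in WT and 53.4 and 49.5 in KO (-0.84 ± 0.20).

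The remaining 2 genes of the lower side were immunoglobulin heavy chain genes. Ighm, the constant region of IgM, had 2945.5 and 3637 in WT and 777.3 and 862.5 in KO, with -1.91 ± 0.36 (adjusted p = 0.117, limma). Its untreated KO arrays, at 682.3 to 1841.8, also lay below the untreated WT arrays, at 2599.3 to 3376.9. The 10 other Ighm probe sets disagreed, from -2.62 to 0.46. Igha, the constant region of IgA, gave -1.24 ± 0.24 at one probe set and -2.27 at another, with 3372.9 and 3293.6 in WT and 457.1 and 829.8 in KO at the latter (adjusted p = 0.143, limma). Untreated, the latter also differed, with 3140.9 to 3631.2 in WT and 578.5 to 2126.3 in KO (-1.37). Its departure from the untreated difference was not called (adjusted p = 0.874, limma).

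On the higher side 14 genes with the smallest p were not called, at adjusted p from 0.117 to 0.440 (limma). Nfix, a nuclear factor I gene, had 591.8 and 636.2 in KO and 267 and 212.6 in WT, a difference of 1.27 ± 0.25, and its second probe set gave 0.99. The KO values were also above all untreated arrays, which reached 507.9. Epn1, an endocytic adaptor gene, had 1231.4 and 1261.2 in KO against 676.3 and 816.3 in WT (0.75 ± 0.18). Here the KO arrays lay in the upper part of the untreated range of 910.2 to 1273.3 and the WT arrays below it. Rasal1, a Ras GTPase-activating protein gene, had 280.8 and 265.5 in KO against 143.9 and 138.9 in WT (0.81 ± 0.18).

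Barx1, a homeobox gene, had 91.2 and 63.3 in KO and 19.1 and 16.4 in WT at 30 min, a difference of 1.06 ± 0.22. Untreated, the order was the opposite, with 36.6 to 64.6 in WT and 12.2 to 16.1 in KO (-0.85). Dnajc11, a mitochondrial DnaJ protein gene, had 150.2 and 56.7 in KO and 29.1 and 17.4 in WT (1.18 ± 0.26), and Anp32a, an acidic nuclear phosphoprotein gene, 93.5 and 163.5 against 3 and 35.3 (1.61 ± 0.30). Dnajc11 passed the filter only through the 2 KO arrays at 30 min. The KO arrays of both differed widely from each other, and the second Anp32a probe set gave 0.09.

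The other 8 genes of the higher side had differences from 0.84 to 1.30. They were R3hdm1 (1.11), Kif1b, a kinesin motor gene (1.06), Usp19, a deubiquitinase gene (1.01), Nudt5, a nudix hydrolase gene (0.92), Tm7sf2, a sterol reductase gene (1.07), Grb10, a receptor adaptor gene (1.30), Dnmt3a, a DNA methyltransferase gene (0.84), and Smr2, a submaxillary gland gene (0.999). Second probe sets gave 0.21 for Usp19, 0.31 for Grb10, 0.67 for Smr2 and -0.13 for Tm7sf2. Nudt5 passed the filter only through the 2 KO arrays at 30 min.

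The gene lists were read against all tested probe sets, whose median difference at 30 min was -0.01, with 51.7% below 0 and a median absolute difference of 0.20. Of the AP-1 subunits, 8 of 9 genes on the array were tested. Fos was called, 5 of 8 were below 0 and the list median was -1.001, with -1.08 without KO array A and -0.83 without KO array B. Junb (288.6 and 466.9 in WT, 195.7 and 115.1 in KO, -1.11 ± 0.29) and Batf (101.5 and 115 in WT, 56.8 and 20.2 in KO, -1.09 ± 0.41) stood beside Fos, Atf3 and Jun. Fosb (0.05), Jund (0.05) and Fosl2 (0.18) were near 0.

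Among the Egr, Ier, Nr4a and Klf early genes 3 of 14 were called lower, 11 were below 0 and the median was -0.17, with -0.10 without KO array A and -0.39 without KO array B. Btg2, an antiproliferative gene, had 930.4 and 1204.2 in WT and 497.7 and 645.7 in KO (-0.81 ± 0.33, adjusted p = 0.700, limma), and Klf6 gave -0.58. Nr4a1 (0.09), Nr4a2 (-0.02), Klf10 (-0.00) and Myc (0.05) were close to 0. Of 9 MAP kinase phosphatases and mRNA decay factors Dusp1 was called, and the median was -0.19, with -0.08 without KO array A and -0.38 without KO array B. Dusp6 (-0.16), Dusp2 (0.14), Zfp36l1 (-0.19) and Zfp36l2 (0.28), relatives of Dusp1 and Zfp36, differed far less than those 2 genes.

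NF-kB targets that encode chemokines and cytokines had 8 of 18 genes tested, 6 below 0 and a median of -0.55, which was -0.17 without KO array A and -0.68 without KO array B. Cxcl1 was called in this list, at its second probe set. Cxcl2, its close relative, had 64 and 56.9 in WT and 50.7 and 6.8 in KO (-0.77 ± 0.34), and Ccl5 158.5 and 154.5 in WT and 45.8 and 135.7 in KO (-0.79 ± 0.32). In both genes 1 of the 2 KO arrays was close to the WT arrays. Cx3cl1 (0.03) and Csf1 (0.16) were near 0.

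NF-kB targets that encode inhibitors, subunits and survival factors had 21 of 26 genes tested, 12 below 0 and a median of -0.21, which was 0.00 without KO array A. Nfkbia was called. Birc3, an inhibitor of apoptosis, had 68.5 and 105.4 in WT and 21 and 56.1 in KO (-0.79 ± 0.29). Irf1, an interferon regulatory factor, had 329.3 and 305 in WT and 155 and 210.3 in KO (-0.74 ± 0.21, adjusted p = 0.626, limma). The other inhibitors Nfkbib (-0.23), Nfkbie (-0.34) and Nfkbiz (-0.44) and the subunits Nfkb2 (0.16) and Relb (0.19) were not called. Both WT arrays exceeded both KO arrays in 6 of the 21 genes and lay below them in 5, against 16.6% and 15.2% of all tested probe sets (31.8% in either direction).

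**Figure D3:**
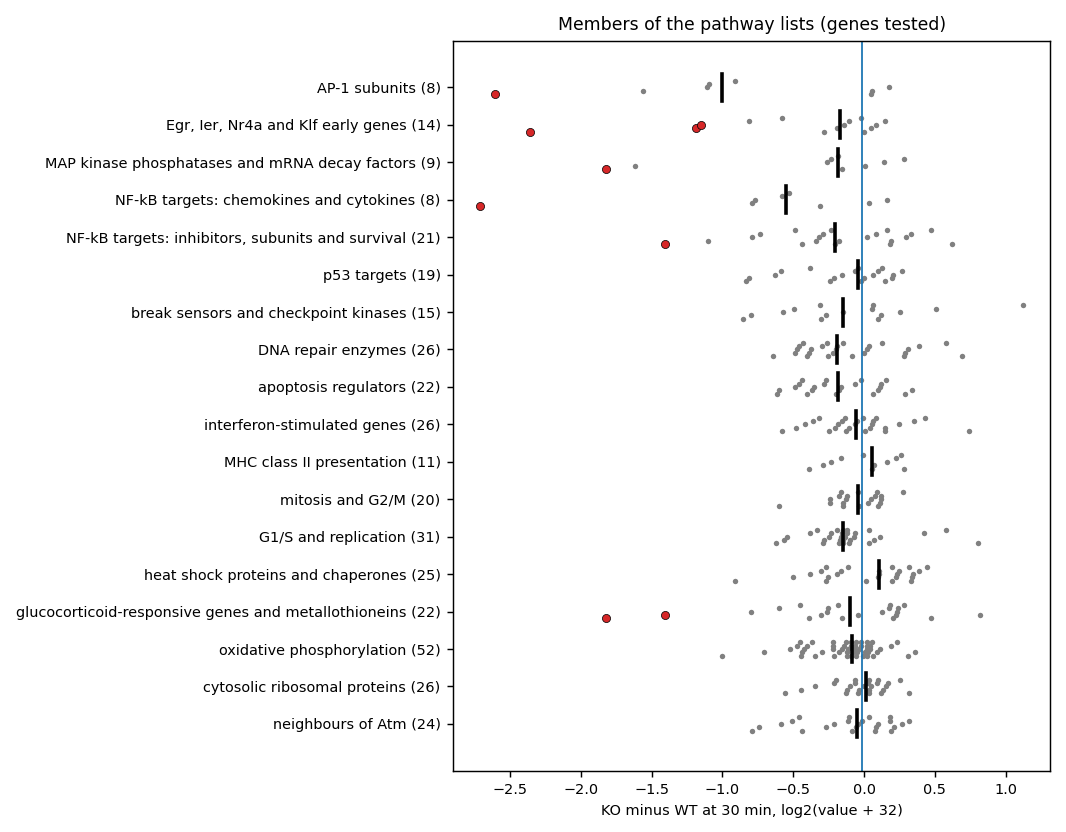
KO minus WT difference at 30 min of every tested member of 18 pathway lists, 1 row per list with the number tested, on the log2(intensity + 32) scale. Points are genes (red where called), the black tick is the list median and the blue line the median of all tested probe sets, -0.01. The AP-1 tick stands at -1.001 and the NF-kB chemokine tick at -0.55, and those of the other 16 lists lie between -0.21 and 0.10.

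Of 19 tested p53 targets 0 were called at 30 min with limma, 12 were below 0 and the median was -0.04. The p53 inhibitor Mdm2 (-0.02) and the cell cycle inhibitor Cdkn1a (0.20) were near 0. Gadd45a, a growth arrest gene, had 364 and 417.6 in WT and 128.7 and 339.4 in KO (-0.83 ± 0.35), with only KO array A far from WT. Plk2, a polo-like kinase gene, had 202.4 and 195.4 in WT and 114.7 and 128.6 in KO (-0.63 ± 0.19, adjusted p = 0.629, limma), and Xpc, a damage recognition gene of nucleotide excision repair, gave -0.59. Of the 19 genes 4 were below 0 at an unadjusted p under 0.05 and 0 above, where 3.47% and 3.23% of all tested probe sets were. The list median was -0.09 without KO array A and -0.17 without KO array B.

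Break sensors and checkpoint kinases had 0 of 15 called and a median of -0.15, which was 0.01 without KO array A. At an unadjusted p under 0.05, 2 were lower and 1 higher, where 3.47% and 3.23% of all tested probe sets were. In Hus1, Nbn and Rad17 KO array A lay far from the other 3 arrays. Hus1, of the clamp that loads at breaks, had 136.4 and 34.9 in KO and 20.3 and 11.7 in WT (1.12 ± 0.46). Nbn, a partner of Atm at breaks, had 12.4 and 66.9 in KO and 91.8 and 82.4 in WT (-0.85 ± 0.32), and Rad17 gave -0.80. Chek2 (0.06), H2ax (0.12), Rad50 (0.06) and Abl1 (0.10) were near 0.

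In 11 further pathway lists the medians lay between -0.20 and 0.10. Only the list of glucocorticoid-responsive genes and metallothioneins, which shares Dusp1 and Nfkbia with the lists above, held a call (2 of 22, median -0.10, 0.02 without KO array A and -0.22 without B). The medians were -0.20 for 26 DNA repair enzymes (17 below 0; Ercc1 -0.64, Brca2 0.69), -0.19 for 22 apoptosis regulators (Bid -0.62, Bik -0.60) and -0.15 for 31 genes of G1/S and replication (24 below 0; Slbp -0.62, Rrm1 0.80). They were -0.04 for 20 genes of mitosis and G2/M (Aurkb -0.60, Kif20a 0.28), -0.06 for 26 interferon-stimulated genes (Isg15 -0.58, Eif2ak2 0.74) and 0.06 for 11 genes of MHC class II presentation (H2-DMb2 -0.39, H2-Ob -0.29). They were 0.10 for 25 heat shock proteins and chaperones (Dnajb1 -0.91, Stip1 -0.50), -0.09 for 52 genes of oxidative phosphorylation (36 below 0; Ndufa10 -1.001, Atp5pb -0.71) and 0.01 for 26 cytosolic ribosomal proteins (Rps19 -0.56, Rpl13a -0.44). A list written for neighbours of Atm had a median of -0.05 over 24 genes (Birc3 -0.79, Timm8b -0.75). Distances from Atm were not checked, so members may lie far from it on its chromosome. Without KO array A the median was 0.15 for mitosis, 0.05 for the Atm neighbour list, -0.02 for MHC class II, -0.02 for DNA repair, -0.02 for G1/S, -0.03 for ribosomal proteins, -0.03 for oxidative phosphorylation, 0.05 for heat shock proteins and -0.15 for interferon-stimulated genes. Without KO array B it was -0.03 for heat shock proteins, -0.06 for apoptosis regulators, -0.21 for mitosis, -0.22 for G1/S, -0.00 for interferon-stimulated genes, 0.19 for MHC class II, -0.16 for oxidative phosphorylation, 0.04 for ribosomal proteins and -0.09 for the Atm neighbour list.

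Cell type markers were compared between the same 4 arrays, and 0 of 175 genes in 15 marker lists were called with limma, with 10 lower and 5 higher at an unadjusted p under 0.05. Of all tested probe sets 3.47% were lower and 3.23% higher at that threshold. B cell markers had summed intensities of 2541 and 3164 in WT and 3271 and 2541 in KO (15 genes, median difference -0.04; Blnk 0.49, Cd79a 0.40). T cell markers had 1658 and 1883 in WT and 1924 and 1238 in KO (16 genes, median -0.21, 0.02 without KO array B; Il7r -0.60, Cd3e -0.59). For both lymphocyte lists the genotypes overlapped. Macrophage markers (5209 and 5318 in WT, 5152 and 5376 in KO; 15 genes, median 0.00, Adgre1 -0.80, Aif1 -0.60) and neutrophil markers (886 and 982 in WT, 1110 and 920 in KO; 10 genes, median 0.02; Ngp -0.49, Ltf 0.36) overlapped as well.

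Plasma cell markers had 3041 and 2962 in WT and 2092 and 2562 in KO, with no overlap, and a median of -0.38 over 8 genes, which was -0.20 without KO array A and -0.49 without KO array B. Of all tested probe sets 16.6% were lower in KO without overlap, and 31.8% did not overlap in either direction. Jchain, the joining chain of IgM and IgA, had 1159.6 and 1002.3 in WT and 286.2 and 557.4 in KO (-1.34 ± 0.36, adjusted p = 0.455, limma), and Tnfrsf17, a plasma cell receptor, gave -0.65. Xbp1, a factor of secretory cells, gave 0.06. Of 52 immunoglobulin probe sets of 25 genes, picked after their values were seen, 43 were below 0 at 30 min with a median of -0.69 and 0 called, where 51.7% of all probe sets were below 0. The untreated median was -0.19 with 38 below 0, where 49.99% of all probe sets were, and at 120 min it was 0.99 with 4 below 0. At most of these probe sets KO array A was above KO array B at 120 min, and the part of that array was not tested. One Ighm probe set had 4853.6 and 262.6 in KO and 131.4 and 167.8 in WT. Another, called at 120 min, had 3300.8 and 2298 in KO and 643.8 and 462.9 in WT. These genes are near copies, and their probes can bind each other's transcripts.

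Skeletal muscle markers had 5562 and 3312 in WT and 5395 and 5453 in KO, with a median of 0.16 at 30 min against 1.28 without radiation (24 genes; Mb 1.30, Myh4 0.88). The untreated sums were 13150, 5244 and 15634 in KO arrays A, B and C, and 4578, 3696 and 2568 in WT. At 120 min the median was -0.49. Salivary gland markers were on all 4 arrays, with summed intensities of 92303 and 119057 in WT and 129838 and 101756 in KO, and all 12 were tested. RNA labelled as lymph node thus gave signal for salivary genes in both genotypes. Their median intensity was 8421 and 11015.4 in WT and 11406.9 and 9340.2 in KO. That of B cell markers was 108 and 164.9 in WT and 163.9 and 126.6 in KO. That of T cell markers was 69.3 and 82.6 in WT and 68.8 and 59.6 in KO. The share of each tissue in the RNA was not tested. The median difference of the salivary genes was 0.01, from -0.09 (Klk1b1, above 0 with median centring or without normalization) to 0.15 (Prpmp5) over 12 genes. Pancreatic markers had a median of -0.38 over 8 genes (Ctrb1 -0.74, Pnliprp1 0.81), with 2216 and 2461 in WT and 2013 and 2496 in KO.

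The other lists also overlapped between genotypes in summed intensity, except for stroma and endothelium (4006 and 3905 in WT, 4191 and 4717 in KO; 21 genes, median 0.12; Vim -0.69, Madcam1 0.61) and immature thymocytes (372 and 365 in WT, 352 and 348 in KO; 4 genes, median -0.14; Ptcra 0.47, Rag1 -0.41). Their medians were -0.03 for dendritic cells (Ccl22 -0.50, Itgax 0.42), 0.22 for NK and cytotoxic cells (Klrd1 0.89, Prf1 -0.58), -0.32 for erythroid cells (Epb42 -0.70, Slc4a1 -0.43), -0.12 for adipocytes (Retn 0.99, Pparg -0.68) and 0.20 for skin (Krt1 0.89, Flg -0.78). Without KO array A the median was -0.04 for NK cells, -0.39 for adipocytes, -0.19 for erythroid cells, 0.19 for stroma and -0.07 for thymocytes. Without KO array B it was 0.50 for NK cells, 0.08 for adipocytes, -0.04 for skin, -0.14 for erythroid cells, 0.05 for stroma, 0.05 for thymocytes and -0.12 for dendritic cells. The part of any of these cell types in the genotype differences was not tested.

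The later time showed which of the differences were seen again on other arrays. At 120 min 21 probe sets were lower in KO (0.235%) and 2 higher (0.0224%), and 5 of the 9 called at 30 min were among these 23. They were Cxcl1 (both), Nfkbia, Dusp1 and Ier3, all lower in KO at both times. Cxcl1 reached 931.3 and 1274.8 in WT against 48.7 and 54 in KO at 120 min, a difference of -3.73 (adjusted p = 0.000145, limma). Nfkbia reached 3247.3 and 2735.8 against 606.7 and 647.2, or -2.24 (adjusted p = 0.00011, limma). In both genes the WT arrays were higher at 120 min than at 30 min, and the KO arrays stayed in or near the untreated range.

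Fos, Ier2, Egr1 and Met were called at 30 min and not at 120 min. Fos had 58.7 and 81.7 in WT and 49.6 and 40.3 in KO at 120 min, a difference of -0.47. The test of the change of the Fos difference between the times gave -2.13 and was not called (adjusted p = 0.0898, limma). For Ier2 and Egr1 it gave -0.54 and -0.83, also not called (adjusted p = 0.65 and 0.40, limma). Ier2 had 289.9 and 278.4 in WT and 158.2 and 178 in KO at 120 min (-0.645 ± 0.169). Egr1 had 179.2 and 216.5 in WT and 155.8 and 148 in KO (-0.32). Met had 15.9 and 14.1 in KO and 33.9 and 28.1 in WT at 120 min, the opposite order, with a difference of -0.49 and a change between the times of 1.69 that was not called (adjusted p = 0.095, limma). Ier3 was between, with 840.5 and 766.9 in WT and 336.7 and 289 in KO at 120 min (-1.22, adjusted p = 0.0176, limma). Dusp1 had 504.6 and 575.3 in WT and 154.2 and 148.8 in KO, with the KO arrays below all their untreated values, 207.7 to 251.9.

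Some NF-kB targets were called at 120 min without a call at 30 min. Their differences at 30 and 120 min were -1.10 and -2.48 for Tnfaip3, -0.79 and -1.82 for Birc3, -0.21 and -1.97 for Icam1, 0.19 and -1.75 for Relb and 0.02 and -2.10 for Bcl3. For Tnfaip2 they were 0.30 and -2.08, for Cd14 -0.29 and -1.89 and for Cx3cl1 0.03 and -1.43. The test of the change between the times called 1 probe set of all tested (0.0112%), that of Rasal1, and none of these. Rasal1 had 280.8 and 265.5 in KO and 143.9 and 138.9 in WT at 30 min, and at 120 min 135 and 139.1 in KO and 312 and 399.5 in WT. The change was 1.97 ± 0.26 (adjusted p = 0.0373, limma), with 678 probe sets at an unadjusted p under 0.05.

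**Figure D4:**
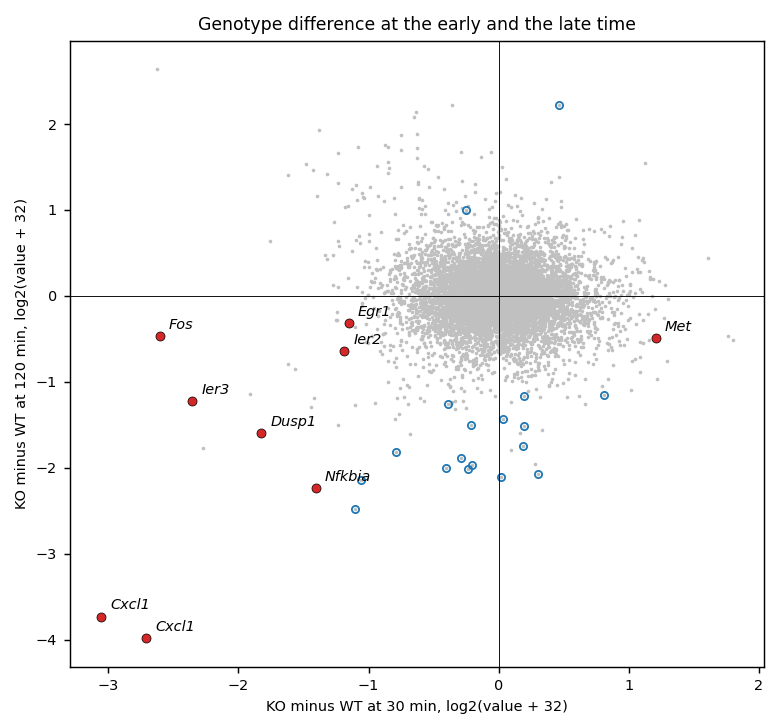
KO minus WT difference of each of 8938 tested probe sets at 30 min (horizontal) and at 120 min (vertical), on the log2(intensity + 32) scale. Red points were called at 30 min, blue circles at 120 min without a call at 30 min, and grey points at neither. The 2 Cxcl1 points stand lowest, at -3.05 and -3.73 and at -2.71 and -3.98, and the blue circles lie between -1.10 and 0.81 on the horizontal axis.

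The calls at 30 min were also counted with each array left out. Without KO array A at 30 min 5 probe sets were called, all among the 9, and without KO array B 121 were, 94 lower and 27 higher, of which 8 were among the 9. Without WT array A or B at 30 min 5 were called. Fos, Ier3, Dusp1 and the first Cxcl1 probe set were called in all 14 fits that left out 1 array, Nfkbia in all but the one without WT array B at 30 min, and Ier2, Egr1 and the second Cxcl1 probe set in all but those without WT array A, WT array B or KO array A at 30 min. Over the 14 fits the Ier2 difference ran from -1.31 to -1.06, that of Egr1 from -1.30 to -1.02 and that of the second Cxcl1 probe set from -2.89 to -2.54, with no change of sign. A fit of the 4 arrays alone called 0 (lowest adjusted p 0.109, limma; 284 at an unadjusted p under 0.05).

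**Figure D5:**
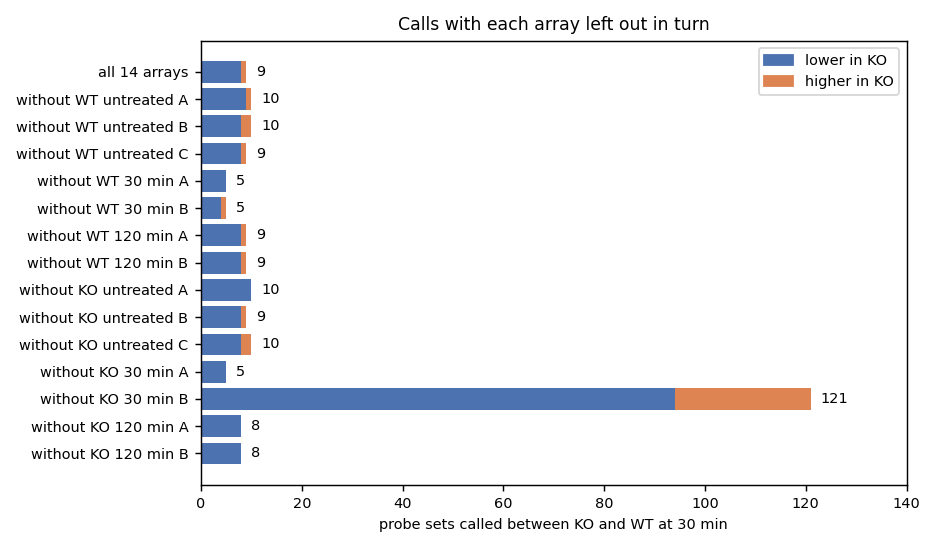
Number of probe sets called between KO and WT at 30 min with all 14 arrays and with each array left out in turn, lower in KO in blue and higher in orange, the total beside each bar. Leaving out KO array B at 30 min gives 121 calls, against 5 to 10 for every other array.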

How the data were processed

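The authors deposited linear intensities from 0 to 15198.3, 1 for each probe set on each of 14 arrays. The sources used here do not name the software behind them. The trimmed mean was 150.1 on every array, so the arrays had been scaled to a common target, as read from the values. Intensities were taken as log2(value + 32). The array medians spanned 0.273 on that scale, and the values were quantile normalized.

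Of 12488 probe sets, 66 controls were left out, and 8938 above their array's own 40th percentile (38.3 to 55.28) on at least 2 arrays were tested. Gene names came from the platform annotation: 7960 had 1 gene, 303 several and 675 none, and only those with 1 were named. With limma (version 3.58.1, R version 4.3.3), lmFit and eBayes were run on a model of 6 group means over all 14 arrays, with 8 residual and 4.56 prior degrees of freedom. The p-values are two-sided, adjusted by Benjamini-Hochberg over the tested probe sets. The script was tested on simulated data.

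The named genes were Atm, the 15 genes per direction with the smallest p (1 probe set per gene), and the 2 to 4 list members with the largest differences. Others were named after their values were seen. Lists use each gene's brightest probe set. The comparison, lists and tests were chosen with earlier results of these data known. Alternatives varied the offset (16, 64, or a floor), normalization, filter, arrays in the fit, replicate letter and variance model. Array weights were added after seeing the data. Promoter sequences are those of RefSeq (GRCm38.p6), matched by symbol for 5 genes.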

Additional observations from a re-analysis of the deposited data

Results flagged for a closer look

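The genotype difference at 30 min departed from the untreated difference, by the interaction test of the limma fit, in 7 probe sets. For Ier3 the departure was -2.31 ± 0.25 and for Fos -2.63 ± 0.29 (adjusted p = 0.00388 for both). Both were called under every other setting and every left-out array that was run. For Dusp1 it was -1.87 ± 0.26 and for the 2 Cxcl1 probe sets -2.89 ± 0.40 and -2.90 ± 0.46 (adjusted p = 0.0209, 0.0209 and 0.0393, limma), calls that ended in 7, 5 and 10 of 14 fits that left out 1 array. For Nfkbia it was -1.44 ± 0.22 (adjusted p = 0.0393, limma), a call that ended in 12 of 14 fits that left out 1 array.

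Barx1, a homeobox gene, was the positive one, at 1.91 ± 0.29 (adjusted p = 0.0322, limma), made up of 1.06 at 30 min and -0.85 untreated. All values behind it were low, from 12.2 to 91.2 on the 10 arrays compared, and the call ended in 10 of 14 fits that left out 1 array. Between 30 and 120 min the genotype difference of Rasal1 departed by 1.97 ± 0.26 (adjusted p = 0.0373, limma), from 0.81 at 30 min to -1.16 at 120 min.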

How the results depend on the processing

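The 9 calls at 30 min became 0 with the 4 arrays alone, 15 with an intensity trend, 5 with array weights and 5 to 121 with 1 array left out (121 without KO 30 min B). The 0 untreated calls became 0 to 7 with 1 array left out (7 without KO untreated B). The 23 calls at 120 min became 37 with offset 64, 11 with the 8 irradiated arrays, 39 with a trend, 63 with array weights and 9 to 49 with 1 array left out (9 without WT 120 min B, 11 without KO 120 min A, 49 without KO 120 min B). The 7 calls of the 30 min against the untreated difference became 4 with offset 16 and with the floor, 3 with the replicate block, 3 with array weights and 2 to 28 with 1 array left out (28 without KO 30 min B). The 1 call of the 30 against the 120 min difference became 0 with offset 16, the 8 irradiated arrays, the replicate block or array weights, 2 with offset 64, the floor or the 60th percentile filter, and 0 to 49 with 1 array left out (49 without KO 120 min B, 3 without KO untreated B). The cause was not tested, except that the fit of 4 arrays has fewer samples. Deviations from the group mean correlated at r from -0.121 to 0.084 over 31 pairs of arrays with the same letter. In a group of 2 arrays these deviations mirror each other. The pairs are therefore not independent and cannot decide whether the letters pair samples. With the replicate block 6 probe sets were called at 30 min, all among the 9 and without Ier2, Egr1 and Met, 17 at 120 min and 0 untreated. With the 8 irradiated arrays 6 were called lower and 1 higher at 30 min, of which 4 were among the 9. Nfkbia, Ier2, Egr1, Met and the second Cxcl1 probe set lost their calls there. Of single genes, 11 values changed sign, none of them called. Klk1b1 gave 0.037 with median centring and 0.097 without normalization. With 1 array left out Brca2 ran from -0.357 to 1.73, H2-DMb2 from -0.881 to 0.1, Kif20a from -0.388 to 0.937, Cd79a from -0.138 to 0.945, Rag1 from -1.176 to 0.372 and Itgax from -0.17 to 1.003, with the ends set by KO 30 min A and B. Atm ran from -0.698 without WT 30 min A to 0.156 without WT 30 min B. Signal near background limits Met, Barx1, Stac, Atm, Cxcl1, Tnfaip3, Anp32a, Kif1b, Dnajc11, Nudt5 and others with values near or below 32 in at least 1 group.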
